A study of Oryctolagus cuniculus with 4 samples.

Results

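Interleukin-1 alpha (IL1A), interleukin-1 beta (IL1B) and the interleukin-1 receptor antagonist (IL1RN) were followed across 4 single-colour arrays of rabbit ligamentum flavum, the elastic ligament between neighbouring vertebral arches. All probes whose accession is a RefSeq transcript of 1 of these genes were taken, which gave 4 probes of IL1A, 3 of IL1B and 3 of IL1RN. These are 10 of 43603 probes, and 3 of the 1489 genes that could be named on the array. All tissue came from male rabbits aged 34 weeks, 16 weeks after surgery per the labels. The surgery was resection of the supraspinal muscle at L3-4 with instrumented posterolateral fusion of L2-3 and L4-5, and the labels give the same surgery text for all 4 samples. L3/4 is the intervertebral stress concentration (ISC) level, and has its own L3/4 control. The fused levels, L2/3 and L4/5, have the L2/3 and L4/5 control, which makes 4 groups. Whether the controls were operated on, and whether animals or the levels L2/3 and L4/5 were pooled, is not given in the sources used here.

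Each group was measured on 1 array, so there are no replicates, no p-values and no check against the spread between animals. The only error available is that of Feature Extraction, the scanner software, for each spot. It is given below as spot error, is technical, and says nothing of animals. Levels are log2 signal over the array's own 75th percentile, so that a level of 0 means the signal of that percentile, and ratios are differences of such levels. A difference of at least 2-fold (1 on the log2 scale) is a fixed size and not a test. Fewer cells of a type and less RNA per cell cannot be told apart in such bulk tissue.

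IL1A and IL1B are the ligands that set off inflammatory signalling through the type I interleukin-1 receptor. IL1A is active as made and is released from damaged cells, whereas IL1B is made as an inactive precursor, mainly by myeloid cells, and is cut by caspase-1 in the inflammasome. IL1RN binds the same receptor without signalling and so blocks both ligands. In ligament and disc cells interleukin-1 is known to raise matrix proteases and cyclooxygenase-2. In the RefSeq annotation of the assembly mOryCun1.1 the 3 genes lie in a row of 8 protein-coding genes on 1 chromosome, and the other 5, IL37, IL36G, IL36A, IL36RN and IL1F10, had no probe that could be named here.

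The 3 genes had different patterns. IL1B and IL1RN were highest at the fused levels on every probe, 3 of 3 for each gene. IL1A was highest in the L3/4 control on each of the 3 probes that were well above background on any array, and was not well above background on any probe at the fused levels or in the L2/3 and L4/5 control. Of the 40 probe values (10 probes on 4 arrays) 19 were well above background, so that much of what follows is near the limit of the arrays. The plot of each probe's signal by array shows these patterns.

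**Figure D1:**
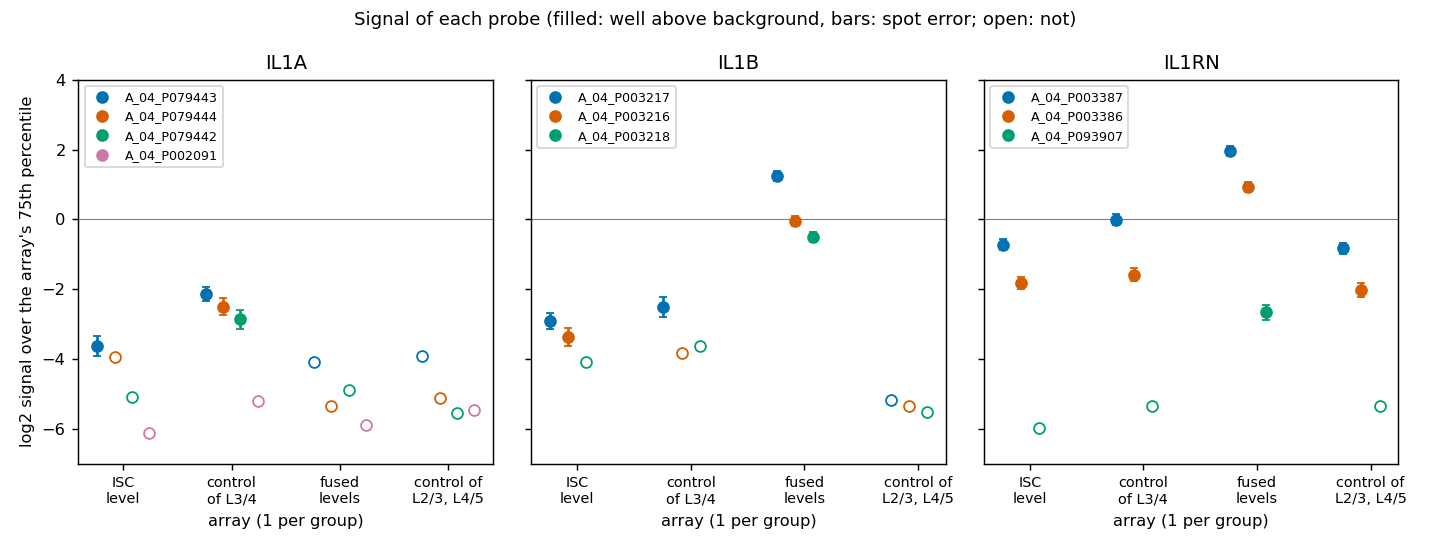
Level (log2 signal over the array's 75th percentile) of each probe of IL1A, IL1B and IL1RN on the 4 arrays, 1 array per group; filled points are well above background, with bars of 1 spot error, and open points are not. IL1B and IL1RN probes were highest at the fused levels. The detected IL1A probes were highest in the L3/4 control, the only array where A_04_P079444 and A_04_P079442 were detected.

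The fused levels were set against the L2/3 and L4/5 control, which asks what differs in ligament of a fused segment. IL1B, the secreted ligand, had a signal of 200.6 ± 20.1 (spot error) at the fused levels on its brightest probe, A_04_P003217, against 2.01 in the L2/3 and L4/5 control, where it was not well above background. The same probe had a signal of 12.5 ± 1.99 at the ISC level and 9.31 ± 1.88 in the L3/4 control. The fused levels thus stood far above the other 3 arrays, which all lay near background.

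On the scaled log2 levels IL1B was at 1.23 ± 0.14 (spot error) at the fused levels and listed at −5.18 in the L2/3 and L4/5 control. Since the control value is not well above background, only a bound can be given, set against the lowest signal well above background on that array. IL1B was at least 21.9-fold higher at the fused levels on this probe, a log2 bound of 4.45. The other IL1B probes gave bounds of at least 9.04-fold (A_04_P003216) and at least 6.51-fold (A_04_P003218). At the fused levels all 3 probes were well above background, and in this control none was.

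IL1RN, the antagonist, was well above background on all 4 arrays with its brightest probe, A_04_P003387. Its signal was 333.5 ± 33.4 (spot error) at the fused levels, against 41.1 ± 4.47 in the L2/3 and L4/5 control. The signals were 56.7 ± 5.84 at the ISC level and 53.2 ± 5.47 in the L3/4 control. The fused levels were again the highest, and the scaled levels of the other 3 arrays are given with the order of the arrays.

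The log2 ratio of IL1RN, fused levels over the L2/3 and L4/5 control, was 2.79 ± 0.21 (spot error). A_04_P003386, the next probe, gave 2.94 ± 0.26, so that the probes differed by less than their spot errors. A_04_P093907 exceeded background well on the fused array only, with a bound of at least 1.46-fold higher, under 2-fold. For IL1A, all 4 probes were below the mark for well above background on both arrays, and no fold is given.

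Of the 3 genes, IL1RN was thus higher by 2-fold or more as a measured ratio and IL1B as a bound. Both arrays had 13717 features (genes or transcripts) well above background, of which 7.84% were 2-fold or more up at the fused levels, 9.12% were 2-fold or more down and 17.0% were either, and the median log2 ratio was −0.13. Of these features 236 had a ratio as high as that of IL1RN or higher, which is 1.72%. Among the 1595 features well above background at the fused levels only, 30.6% had a bound of 2-fold or more, and 39 had a bound as high as that of IL1B or higher. The histograms of all ratios place the members in these distributions.

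The control of L2/3 and L4/5 had by far the highest levels of skeletal muscle markers, and their part in the ratios to it was not tested. The 7 skeletal muscle markers that could be named, of 10, had a summed linear level (in multiples of the array's 75th percentile) of 13.6 at the fused levels and 795.3 in this control. The sum was 26.6 in the L3/4 control. The same ratios were also taken against the L3/4 control. IL1B was then well above background on both arrays, with a log2 ratio of 3.75 ± 0.32 (spot error). IL1RN had a ratio of 1.97 ± 0.21 on its brightest probe and of 2.50 ± 0.23 on A_04_P003386. Both genes were thus higher by 2-fold or more at the fused levels whichever control was used. Over all features, 11.2% were 2-fold or more above the L3/4 control and 13.0% were 2-fold or more below it. Against that control the brightest IL1A probe was lower at the fused levels by at least 2.80-fold, with bounds of at least 2.17-fold and 1.69-fold lower on A_04_P079444 and A_04_P079442. Of the features with such a lower bound in this comparison 59.6% reached 2-fold.

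**Figure D2:**
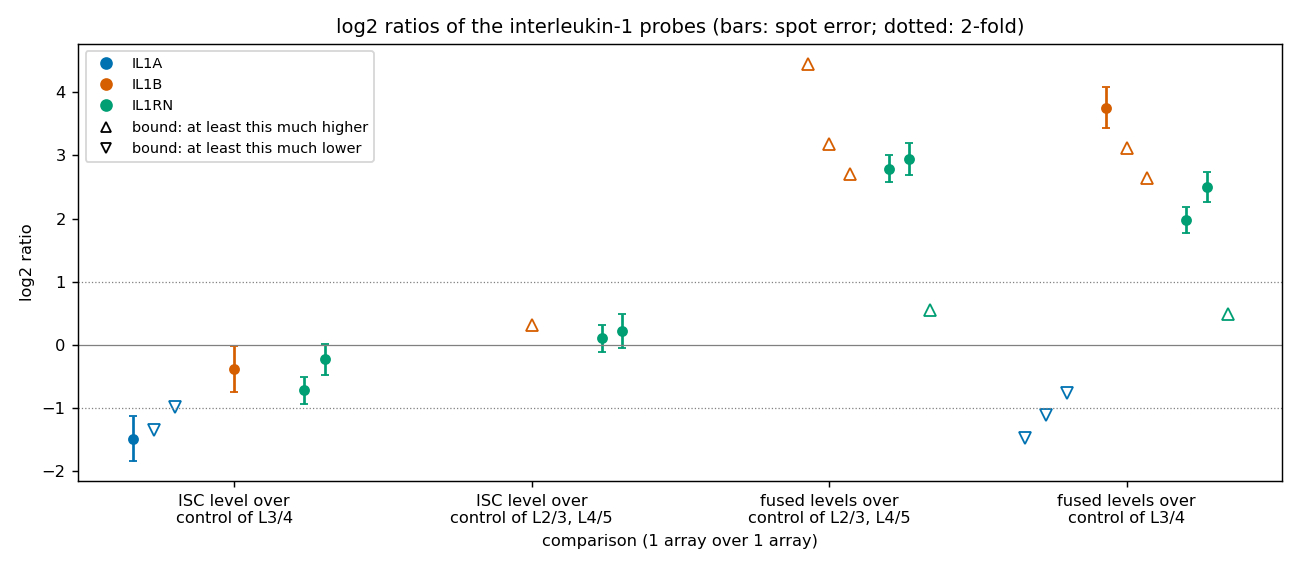
Log2 ratios of the IL1A, IL1B and IL1RN probes at the ISC level and at the fused levels, each over both control arrays; circles are measured ratios with bars of 1 spot error, open triangles are bounds and dotted lines mark 2-fold. IL1B and IL1RN lay above 0 at the fused levels over either control, while at the ISC level the IL1RN ratios lay below 0 over the L3/4 control and above 0 over the L2/3 and L4/5 control.

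The ISC level, where mechanical stress is concentrated per the labels, was set against the L3/4 control. IL1A, the ligand released from damaged cells, had a signal of 7.60 ± 1.53 (spot error) at the ISC level and 12.2 ± 1.73 in the L3/4 control on its brightest probe, A_04_P079443. It was 5.00 at the fused levels and 4.85 in the L2/3 and L4/5 control, both not well above background. The L3/4 control was the highest array. All these signals were dim, since the lowest signal well above background was 6.53 at the ISC level and 6.01 in the L3/4 control.

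The log2 ratio of IL1A, ISC level over the L3/4 control, was −1.49 ± 0.36 (spot error). A_04_P079444 and A_04_P079442 were well above background in the L3/4 control only, and were lower at the ISC level by at least 2.54-fold and at least 1.98-fold. The fourth probe, A_04_P002091, was not well above background on any array. A_04_P079444 and A_04_P079442 could give only a lower bound or none, so the direction rests on A_04_P079443 alone. With normexp background correction the ratio was −0.49, without scaling between arrays −0.68, and over the mean of both controls −0.95 or above, each under 2-fold.

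IL1B at the ISC level had a log2 ratio of −0.38 ± 0.37 (spot error) to the L3/4 control, so that the difference was about the size of its spot error. A_04_P003216 was well above background at the ISC level and not in the L3/4 control, with levels of −3.37 and −3.82, and the bound gave no fold. A_04_P003218 was not well above background on either array. IL1RN had a log2 ratio of −0.72 ± 0.21 on its brightest probe and of −0.23 ± 0.25 on A_04_P003386, both under 2-fold. The probes did not give the same size, and the second lay within its spot error of 0.

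Of the 3 genes, 1 was lower by 2-fold or more at the ISC level (IL1A) and 0 higher by 2-fold or more. Of 13729 features 10.5% were 2-fold or more down and 9.11% were 2-fold or more up, together 19.6%, with a median log2 ratio of −0.16. The count of 1 in 3 genes rests on a single gene and is no result about the set. Of the features well above background in the L3/4 control and not at the ISC level, as the further IL1A probes were, 75.2% had a bound of 2-fold or more. Of the 2688 features at 2-fold 46.5% were higher, but 58.9% with the authors' scaling and 66.2% with normexp. Of all features 3.59% had a ratio as low as that of IL1A or lower, 38.0% as low as that of IL1B or lower and 19.8% as low as that of IL1RN or lower. On their brightest probes IL1A and IL1RN lay lower than the median feature, while IL1B lay within its spot error of it. With the mean over each gene's probes IL1B was at −0.12, beside a median of −0.14.

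**Figure D3:**
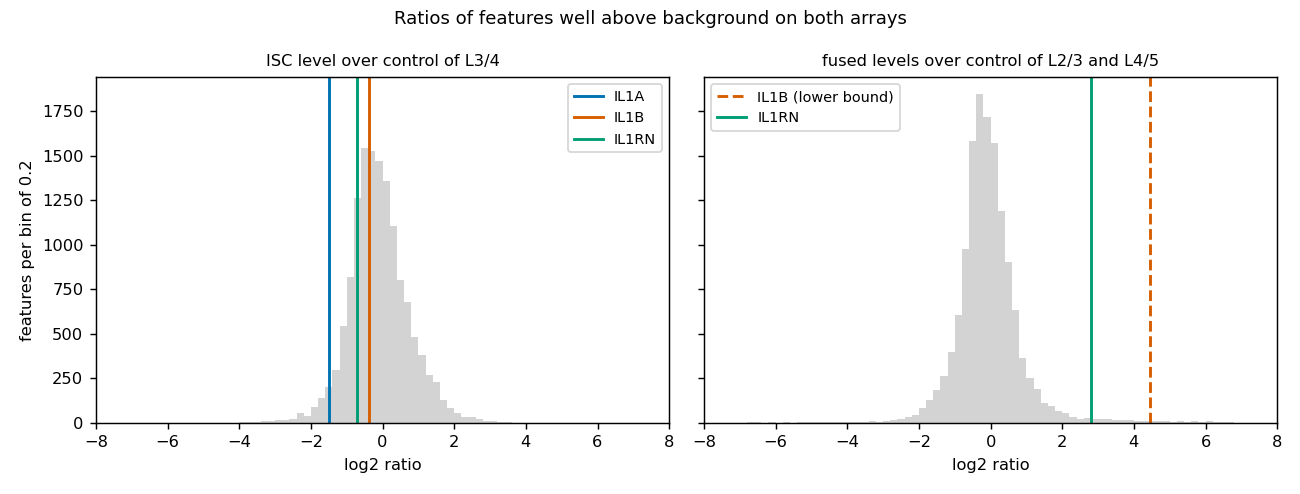
Histograms of the log2 ratio of features that exceeded background well on both arrays (x axis, bins of 0.2; y axis, features per bin), with lines at IL1A, IL1B and IL1RN; the dashed line is the lower bound of IL1B, which was not well above background in the L2/3 and L4/5 control. The ISC ratios of the 3 genes lie within the bulk or its lower side, and IL1RN and IL1B at the fused levels lie in the upper tail.

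Against the L2/3 and L4/5 control the ISC level gave other signs. IL1RN had a log2 ratio of 0.10 ± 0.22 (spot error), and IL1B was at least 1.24-fold higher as a bound, under 2-fold. IL1A was not well above background in that control, and no fold can be given, with levels of −3.63 at the ISC level and −3.91 in that control. In this comparison 3.56% of all features were 2-fold or more up, 5.02% were 2-fold or more down, and 11.4% of those with a bound as for IL1B were 2-fold or more up. For IL1B and IL1RN the ISC level did not stand 2-fold apart from both controls. For IL1A this could not be seen, since it had no fold against the L2/3 and L4/5 control. Without any scaling between the arrays the ratios to the L3/4 control were 0.43 for IL1B and 0.092 for IL1RN, so that their sign depended on the scaling.

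The control arrays differed from each other in the same genes. IL1RN was higher in the L3/4 control than in the L2/3 and L4/5 control, by 0.82 ± 0.22 (spot error) on its brightest probe and 0.44 ± 0.28 on A_04_P003386. IL1A was at least 2.12-fold higher and IL1B at least 1.62-fold higher in the L3/4 control as bounds. Between these controls 8.43% of 13137 features were 2-fold or more up in the L3/4 control, as were 35.8% of the features with a bound. For IL1A, the controls thus stood at least 2-fold apart on the brightest probe only. On A_04_P079444 and A_04_P079442 the bounds were at least 1.65-fold and at least 1.28-fold, which do not reach 2-fold.

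The levels of each gene were ordered over the 4 arrays. For IL1RN the order from high to low was fused levels, L3/4 control, ISC level and control of L2/3 and L4/5, at 1.97, −0.0058, −0.73 and −0.83. The last 2 differed by 0.10, less than their spot error of 0.22. For IL1B the order was the same, at 1.23, −2.52, −2.90 and −5.18, and the gap of 0.38 between the L3/4 control and the ISC level was close to its spot error of 0.37. The −5.18 was not well above background and holds no level, so the last step is known only as a bound of at least 1.24-fold. For IL1A the order was L3/4 control, ISC level, control of L2/3 and L4/5 and fused levels, at −2.14, −3.63, −3.91 and −4.09, and the last 3 did not differ beyond their spot errors. Set directly against the ISC level, the fused levels were higher by 4.13 ± 0.27 for IL1B and by 2.69 ± 0.21 for IL1RN, a comparison in which 7.75% of features were 2-fold or more up.

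The genes nearest to each member in profile were looked for among 604 named genes that ranged over at least 1 on the log2 scale, by the root mean square (RMS) difference of centred log2 levels over the 4 arrays, with levels set no lower than the lowest well above background. Nearest to IL1B were BPI, a bactericidal protein of neutrophil granules, at an RMS difference of 0.21, SRGN, the core protein of secretory granule proteoglycans, at 0.23, and S100A9, a calprotectin subunit of neutrophils and monocytes, at 0.46. These were the only genes within 0.5 of IL1B. BPI had levels of −1.52 at the ISC level, −0.68 in the L3/4 control, 2.76 at the fused levels and −1.36 in the L2/3 and L4/5 control. Like IL1B, it was high at the fused levels alone.

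IL1RN lay nearest to CA2, carbonic anhydrase II, at 0.24, CYBB, the phagocyte NADPH oxidase subunit, at 0.31, and CTSE, the aspartic protease cathepsin E, at 0.33, with 21 genes within 0.5. CYBB had levels of −3.59 at the ISC level, −5.34 in the L3/4 control, −1.18 at the fused levels and −3.75 in the L2/3 and L4/5 control, and was not well above background on either control. CTSE exceeded background well on the fused array only, so that its match rests mostly on the arrays' floors. CYBB was set to the floor on both controls, and CA2, listed at −4.69, in the L2/3 and L4/5 control. Their matches thus rest partly on floors too. For IL1A, itself well above background on 2 of 4 arrays, the likeness rests on floors as much as on levels and picks out no gene: POLI, TAS2R60 and NR1H4 came nearest, but 152 genes lay within 0.5 of it. IL1B and IL1RN differed from each other by 0.72, and from IL1A by 2.09 and 1.37. With 4 arrays such likeness is a description of few points.

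**Figure D4:**
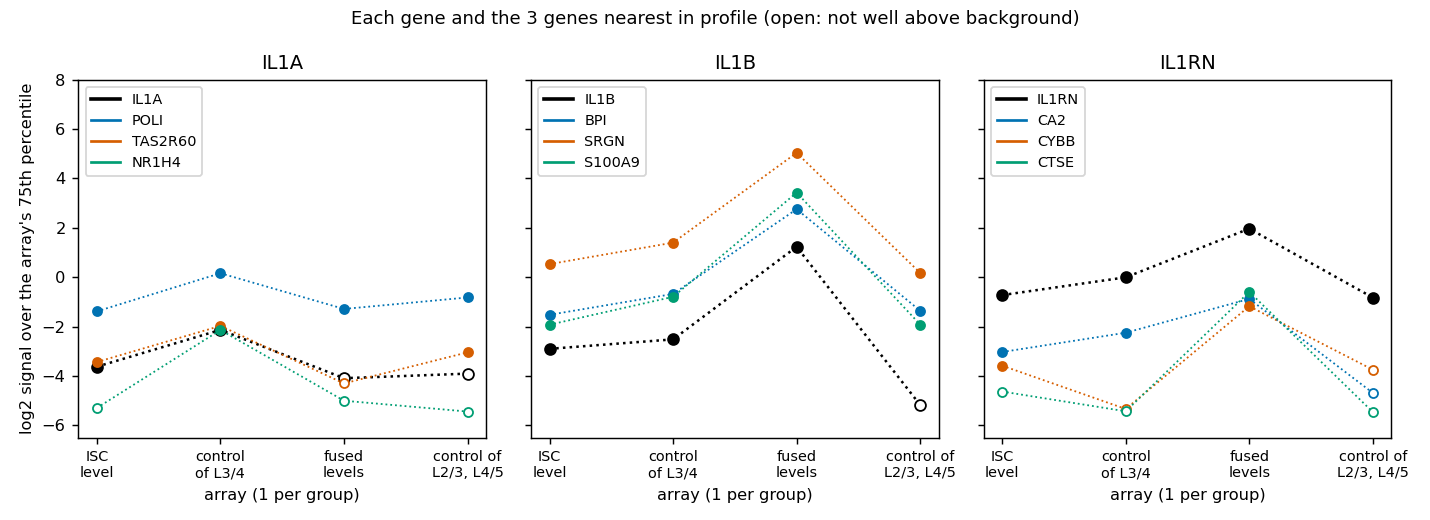
Levels (log2 signal over the array's 75th percentile) of IL1A, IL1B and IL1RN, in black, and of the 3 genes nearest in profile to each, in colour, on the 4 arrays; open points are not well above background and the dotted lines only join the points of a gene. BPI, SRGN and S100A9 peak at the fused levels as IL1B does.

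Most of the neutrophil markers that could be named were high at the fused levels, where IL1B and IL1RN were high. Of 13 neutrophil markers 6 could be named, and their summed linear level was 2.78 at the ISC level against 3.98 in the L3/4 control, and 55.3 at the fused levels against 2.51 in the L2/3 and L4/5 control. The marker lists were drawn up with earlier results of these data known, and are no independent support. Of the 5 measured in both groups, 4 were higher by 2-fold or more at the fused levels, beside 7.84% of all features. The log2 ratios ran from −0.66 for CXCR1, an interleukin-8 receptor, to 6.14 for CAMP, a granule peptide precursor. CAMP had the highest level of these markers at the fused levels, 5.15, and so the largest part of the sum, while CXCR1 was at −1.35. Over the L3/4 control 4 of 5 were also 2-fold or more up, beside 11.2% of all features. MMP9, a gelatinase of neutrophil granules, went another way: it was not well above background in either control, was higher at the ISC level than in the L3/4 control by at least 2.22-fold, and was lower at the fused levels than at the ISC level, by a log2 ratio of −1.30 ± 0.33 (spot error). Of 10 macrophage and monocyte markers 3 could be named, with a sum of 1.67 at the ISC level against 0.812 in the L3/4 control, and 2.92 at the fused levels against 1.39 in the L2/3 and L4/5 control. At the fused levels CD14, the lipopolysaccharide co-receptor, was higher by a log2 ratio of 1.07 and TLR4, the lipopolysaccharide receptor, by 0.98. MSR1, a scavenger receptor, was at least 2.26-fold higher as a bound. Over the L3/4 control the fused levels gave 1.55 for CD14, with bounds of at least 5.44-fold for TLR4 and at least 2.16-fold for MSR1. At the ISC level, where the IL1B and IL1RN ratios to the L3/4 control were negative, CD14 was at 0.71 over that control. MSR1 and TLR4 were not well above background in the L3/4 control, so any bound over it could only be a higher one. At the ISC level these bounds were at least 1.94-fold for MSR1 and at least 2.70-fold for TLR4. Over the L2/3 and L4/5 control the ISC level gave 0.22 ± 0.21 (spot error) for CD14 and −0.033 for TLR4. MSR1 was at least 2.03-fold higher there as a bound. The part of the neutrophil, macrophage and monocyte markers in the IL1B and IL1RN ratios was not tested. The 4 adipocyte markers named, of 6, had a sum of 19.9 at the fused levels against 6.06 in the L2/3 and L4/5 control, which also was not tested. Of the 4 ligament markers named, of 11, COL1A2, DCN and LUM were well above background on all arrays, while TNMD, which marks tendon and ligament cells, was not at the fused levels.

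Little of the receptor and signalling machinery could be named on the array, with 2 of 9 receptor genes, 1 of 14 inflammasome and processing genes and 3 of 29 signalling genes, and the receptor chains of interleukin-1 itself were not among them. IL18, a further family ligand that caspase-1 cuts, had log2 ratios of −0.42 at the ISC level and 0.042 at the fused levels over their own controls. Its measured probes ran from −0.42 to 0.12 at the ISC level, and its 7 probes lay between 0.042 and 0.29 at the fused levels. IKBKG, a regulatory subunit of the IκB kinase, was not well above background on any array, and IL18R1, a receptor chain of interleukin-18, was so at the fused levels only. IL18BP, the decoy that binds interleukin-18, was at −0.52 and −0.10 in the same order. CAPN2, a calpain subunit (calpain cuts the IL1A precursor), was at −0.74 at the ISC level, with probes from −0.74 to 0.16, and −0.13 at the fused levels. JUN, a part of the AP-1 factor, was at 0.82 at the ISC level and at −1.01 at the fused levels, and NFKBIZ, an inducible regulator of NF-κB, was at −0.12 and −0.61. Of the measured ratios of these genes to their own controls, JUN at the fused levels was the one that reached 2-fold on the brightest probe, and a further CAPN2 probe was at −1.29 at the fused levels. IL18R1 had only a bound, at least 1.32-fold higher at the fused levels.

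Of 38 genes listed as known to respond to interleukin-1, 20 could be named. This list was drawn up with earlier results of these data known, and is no independent support. At the fused levels 13 were well above background on both arrays, 5 were 2-fold or more above the L2/3 and L4/5 control and 2 were 2-fold or more below it, beside 7.84% and 9.12% of all features, with a median log2 ratio of 0.55 beside −0.13 over all features. PTGS2, cyclooxygenase-2, was higher by 2.45, with its probes from 0.14 to 2.45, VCAM1, a leukocyte adhesion molecule, by 2.21, HP, the acute-phase protein haptoglobin, by 1.71, and CXCL8, the neutrophil chemoattractant interleukin-8, by 1.05. TNFAIP6, a hyaluronan-binding protein, was lower at −1.51, with probes of both signs, and TIMP1, a metalloprotease inhibitor, at −1.26. BDKRB1, the inducible kinin receptor, was at least 4.32-fold lower as a bound, where 53.6% of features with such a bound reached 2-fold. Over the L3/4 control, 6 of 14 were 2-fold or more up and 1 was 2-fold or more down, beside 11.2% and 13.0% of all features. Against that control the measured probes of PTGS2 ran from −0.63 to 1.98 and those of VCAM1 from −0.21 to 2.27, so that probes of these genes differed in sign.

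At the ISC level, where IL1B and IL1RN were under 2-fold from the L3/4 control, 7 of 15 measured genes of this list were 2-fold or more up and 1 was 2-fold or more down, beside 9.11% and 10.5% of all features, with 0.56 as the median beside −0.16. SAA3, an acute-phase serum amyloid A, was higher by 3.55, MMP13, a collagenase, by 2.25, CCL2, a monocyte chemoattractant, by 1.54 and BDKRB1 by 1.37. LIF, an interleukin-6 family cytokine, was lower at −1.77. HP was higher by 1.32 and PTGS2 by 1.31, with its probes from −0.38 to 1.31. Over the L2/3 and L4/5 control, only 2 of 14 were 2-fold or more up and 1 was 2-fold or more down. These counts stand beside 3.56% and 5.02% of all features. The genes up were PTGS2 at 1.78, with probes from 0.39 to 1.78, and BDKRB1 at 1.23, and LIF was lower at −1.01. HP was at 0.87, MMP13 at 0.45 and SAA3 at 0.031. PTGS2 and BDKRB1 thus stood 2-fold or more above both controls on their brightest probes. The cytokines IL6, TNF and CSF2, each with 5 probes, were not well above background with any probe on any array.

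**Figure D5:**
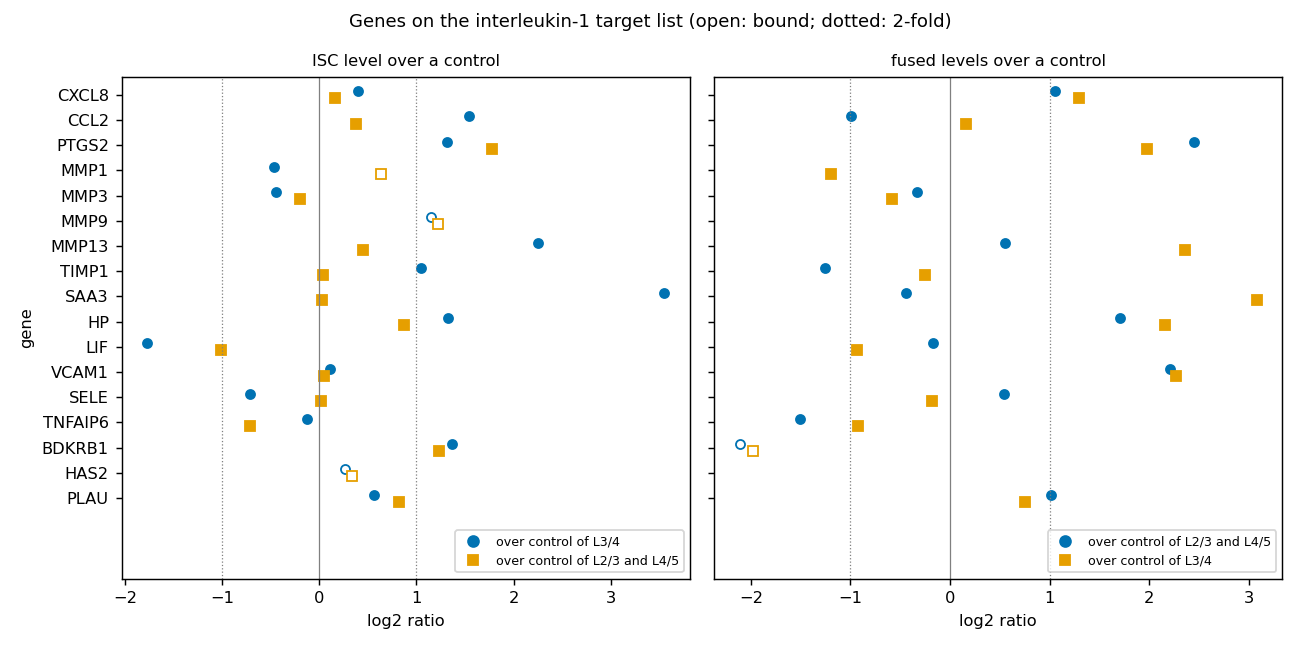
Log2 ratios (x axis) of genes on the list of interleukin-1 targets (y axis), at the ISC level on the left and the fused levels on the right, over the control of the same levels (circles) and over the other control (squares); open symbols are bounds and dotted lines mark 2-fold. The brightest probes, which are those plotted, of PTGS2, VCAM1, HP and CXCL8 lay above 1 at the fused levels over both controls, while SAA3 and MMP13 depended on the control in both panels.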

How the data were processed

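Cy3-labelled cDNA made from total RNA was put on 1-colour Agilent arrays, 1 per group, per the labels' protocols. Per the submitters' processing notes the spots were read by Agilent Feature Extraction 12.0.3. The deposited spot intensities are linear and, per the file headers, had their background removed and were detrended array by array, without scaling to each other. The deposited marks (well above background, saturated, outlier) come from the same software, per the file headers. Where a signal is not significant it equals its own error estimate (within 1% for 99.99% of such spots in the deposited files), so it holds no level. All 4 arrays lie on 1 slide.

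The authors' deposited value table holds intensities equal to these signals times 1 factor per array. The median of its column is 515.5 (ISC level), 442.3 (L3/4 control), 498.4 (fused levels) or 504.0 (L2/3 and L4/5 control). How the factors were chosen is not given in the sources used here.

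For the values reported, each array's 75th percentile of log2 signal over non-control spots was subtracted, a signal of 93.8, 53.4, 85.4 and 72.8 for the arrays as listed. Control spots and 3 to 7 outlier spots per array were left out, and no spot was saturated. Between 59.6% and 67.9% of probes were well above background. The median SD over replicate spots of a probe was 0.12 to 0.15 on the log2 scale. The spot error of a ratio combines Feature Extraction's errors of both spots. A gene is represented by its probe of highest mean level. Where only 1 array was well above background, the bound uses the higher of the dim array's own level and its lowest level well above background. The number of arrays limits the precision.

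RefSeq accessions named 3792 of 43603 probes through a table of mOryCun1.1, whose coordinates are not given because the array design uses oryCun2. The genes, lists and rules were chosen with earlier results of these data known. Named were all members, up to 4 genes in each direction of each pathway list, and the 3 nearest profiles of each member. Some genes so named were also given in other comparisons. Alternatives used limma 3.58.1 for quantile normalization, cyclic loess and normexp (offset 50, on median spot and background signals). The scaling and subtraction were tested on simulated arrays with known fold changes. That test left out the bounds, and its simulated noise was smaller than the spot errors of the reported ratios.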

Additional observations from a re-analysis of the deposited data

Results flagged for a closer look

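For each of IL1B and IL1RN the ratio to the own control had a negative sign at the ISC level and a positive sign at the fused levels. The log2 ratio of IL1B was −0.38 at the ISC level, over the L3/4 control, and at least 4.45 at the fused levels, over the L2/3 and L4/5 control. The log2 ratio of IL1RN was −0.72 at the ISC level and 2.79 at the fused levels over the same controls. With 1 array per group the difference was not tested. Both ISC ratios were under 2-fold, that of IL1B was about the size of its spot error of 0.37, and both were positive over the other control and without scaling between arrays (0.43 for IL1B and 0.092 for IL1RN).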

How the results depend on the processing

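No paired analysis was possible because each group has 1 array. IL1A at the fused levels had no value to recompute, and over the other control IL1A at the ISC level had none. No result at 2-fold turned its sign under any alternative run. With normexp the log2 ratio at the ISC level was −0.49 for IL1A and −0.36 for IL1RN, and at the fused levels 1.73 for IL1B (a bound) and 1.89 for IL1RN; the features at 2-fold were 527 at the ISC level and 708 at the fused levels, beside 2688 and 2327. Normexp adds an offset of 50 to every signal. Without scaling, chosen after the data were seen, the ratios were −0.68 for IL1A, 0.43 for IL1B and 0.092 for IL1RN at the ISC level, and at least 4.68 for IL1B and 3.02 for IL1RN at the fused levels. Over the other control they were at least 0.32 for IL1B and 0.10 for IL1RN at the ISC level, with 1210 features, and 3.75 for IL1B and 1.97 for IL1RN at the fused levels. Over the mean of both controls they were −0.95 or above for IL1A and −0.31 for IL1RN at the ISC level, with 1093 features, and at least 4.10 for IL1B and 2.38 for IL1RN at the fused levels. The mean over probes gave at least 3.44 for IL1B at the fused levels. Counting every feature detected on 1 array or more gave 4657 at the ISC level and 4030 at the fused levels. The share of higher features at the fused levels was 46.2%, and 63.0% with normexp. Under quantile normalization, cyclic loess, median centring and the authors' scaling, no gene's ratio moved by more than its spot error. A floor on dim probes could not move these ratios, since it leaves measured values as they are and already sets the bounds. Signal near background limits all IL1A values and the control values of IL1B.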
